A study of Mus musculus with 12 samples.

Results

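Mt1, Mt2, Slc39a14 and Slc30a1 are 4 genes that bind zinc inside cells or carry it across membranes. Each was taken by its gene symbol, through the transcript clusters annotated to exactly 1 gene, and where a gene has several such clusters the one of highest mean over the 12 arrays is used. Here each of the 4 has 1 such cluster, so they are 4 of the 19938 genes on the array, and all 4 were among the 13977 bright enough to be tested. Taking 1 cluster per gene used no measured difference between genotypes, but the 4 genes were chosen with earlier results of these data known.

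Whole liver of mice aged 2 weeks was profiled on microarrays in 4 genotypes, with 3 arrays (A, B and C) each. The first is Stat3Fl/Fl, with both Stat3 alleles flanked by loxP sites and no Cre in its name (floxed). The next is Stat3Δhc, in which Stat3 is deleted in the liver. The other two carry the same Stat3 genotypes on an Mdr2 knockout, and are called Mdr2-/- floxed and Mdr2-/- Stat3Δhc. Mdr2 is the protein of Abcb4, the phospholipid exporter of the bile canaliculus, and mice without it serve as a model of sclerosing cholangitis. The Cre that deletes Stat3, the strain and the sex of the mice are not given in the sources used here. The labels do not say that each array is a separate mouse, so p-values measure the spread between these samples, which may be technical.

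Zinc in the liver is held by metallothioneins, small cysteine-rich proteins that bind zinc and copper and are encoded by Mt1 and Mt2. Their genes are switched on by zinc through the metal-sensing factor Mtf1, and by glucocorticoids, inflammation and oxidative stress. Slc39a14 (ZIP14) carries zinc, iron and manganese into hepatocytes and is known for its induction by interleukin 6, whose signal STAT3 carries. Slc30a1 (ZnT1) is the plasma membrane exporter that releases zinc from cells and, like the metallothioneins, is a target of Mtf1.

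The promoters of the Mtf1 targets are shown because zinc acts through a short motif in them, the metal response element. RefSeq's promoter table for GRCm38.p6 holds 3 of the 4 genes, and the 250 bases before its transcription start were searched, all on the + strand. Capitals mark the metal response cores TGCACNC and TGCGCNC on either strand. The searched windows are chr8:94178839-94179088 for Mt1, chr8:94172368-94172617 for Mt2 and chr1:191906531-191906780 for Slc30a1. The last 206 bases of the Mt1 window and the last 84 of the Slc30a1 window lie inside the annotated spans of these genes, and so do the cores of both. For these 2 genes 30 bases around the core are shown, chr8:94179055-94179084 and chr1:191906727-191906756, and for Mt2 the whole window, all 5′ to 3′. Slc39a14 is not in that table.
Mt1: cggtcccgctgTGCACACtggcgctccagg
Mt2: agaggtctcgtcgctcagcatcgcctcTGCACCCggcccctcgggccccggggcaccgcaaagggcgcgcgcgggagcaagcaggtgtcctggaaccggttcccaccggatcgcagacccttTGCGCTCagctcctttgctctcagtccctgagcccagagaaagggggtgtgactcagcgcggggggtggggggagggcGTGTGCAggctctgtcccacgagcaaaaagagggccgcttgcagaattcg
Slc30a1: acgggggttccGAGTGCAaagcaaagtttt

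Mt2 held 3 of these cores in its window, 2 of TGCACNC and 1 of TGCGCNC, and Mt1 and Slc30a1 held 1 TGCACNC each. The windows of Mt1 and Slc30a1 reach 206 and 84 bases into the annotated genes and that of Mt2 reaches 0, so these counts do not rank the promoters. At least 1 core of either form stood in 21.6% of 32526 promoter windows of this length, and 1.28% held as many as Mt2. The general STAT motif TTCNNNGAA was in none of the 3 windows and in 7.04% of all windows. The antioxidant response core TGACNNNGC occurred once in Mt2 and once in Slc30a1, and in 10.2% of all windows. Both strands were searched, and these are matches of letters, not measured binding sites. Mt1 spans chr8:94178883-94180327 and Mt2 chr8:94172618-94173567, so the 2 metallothionein genes lie 5315 bases apart. Slc39a14 spans chr14:70303467-70351452 and Slc30a1 chr1:191906697-191913248. Each cluster gives 1 value for the gene as a whole, and which exons its probes cover is not given in the sources used here.

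Array medians lay between 6.01 and 6.14 on the log2 scale, and arrays of a genotype correlated at 0.98 to 0.991. Stat3 lay between 9.19 and 9.54 in the 6 arrays with floxed Stat3 and between 7.69 and 8.12 in the 6 Stat3Δhc arrays. Abcb4 lay between 10 and 10.28 without the Mdr2 knockout and between 8.87 and 9.36 with it. Hepatocyte markers were high on every array, with a mean over 9 genes of 12.60 to 12.90. Xist was high (11.27 to 11.34) in the 3 Mdr2-/- floxed arrays and in array A of Mdr2-/- Stat3Δhc liver. It was low (3.78 to 4.79) in the other 8 arrays, which had Y-linked transcripts. The mean of 10 skeletal muscle markers was 8.48 to 9.45 without the Mdr2 knockout and 5.53 to 5.96 with it. The mean of 10 exocrine pancreas markers ran from 5.53 to 9.98 without the knockout and from 5.33 to 5.75 with it. In whole liver, fewer cells of a type and less RNA per cell cannot be told apart.

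Metallothionein transcripts were lowest in floxed liver. Mt2 rose 1.63-fold with Mdr2 loss in floxed liver, and neither Mt1 nor Mt2 passed the test in any other comparison. The 2 genes varied together across the 12 arrays.

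Mt1 read 11.61, 11.20 and 11.22 on the log2 scale in floxed arrays A, B and C, and 11.85, 11.50 and 11.79 in Stat3Δhc arrays. It read 11.64, 11.52 and 11.80 in Mdr2-/- floxed arrays and 11.34, 11.62 and 11.46 in Mdr2-/- Stat3Δhc arrays. Floxed B and C were the lowest of all, while floxed A lay among the arrays of the other genotypes. The order of the means was Stat3Δhc (11.71 ± 0.19, SD, n = 3), Mdr2-/- floxed (11.65 ± 0.14), Mdr2-/- Stat3Δhc (11.48 ± 0.14) and floxed (11.34 ± 0.23). Every pair of neighbours in that order overlapped.

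Mt2 read 11.40, 10.72 and 11.06 in floxed arrays and 11.71, 11.51 and 11.85 in Stat3Δhc arrays. It read 11.35, 11.81 and 12.13 in Mdr2-/- floxed arrays and 11.15, 11.55 and 11.41 in Mdr2-/- Stat3Δhc arrays. All 3 Stat3Δhc arrays stood above all 3 floxed arrays, and Mdr2-/- floxed A lay within the floxed range. The order was Mdr2-/- floxed (11.76 ± 0.40), Stat3Δhc (11.69 ± 0.17), Mdr2-/- Stat3Δhc (11.37 ± 0.20) and floxed (11.06 ± 0.34), and here too each pair of neighbours overlapped. The spread within floxed and within Mdr2-/- floxed liver was wider for Mt2 than for the other 3 genes.

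**Figure D1:**
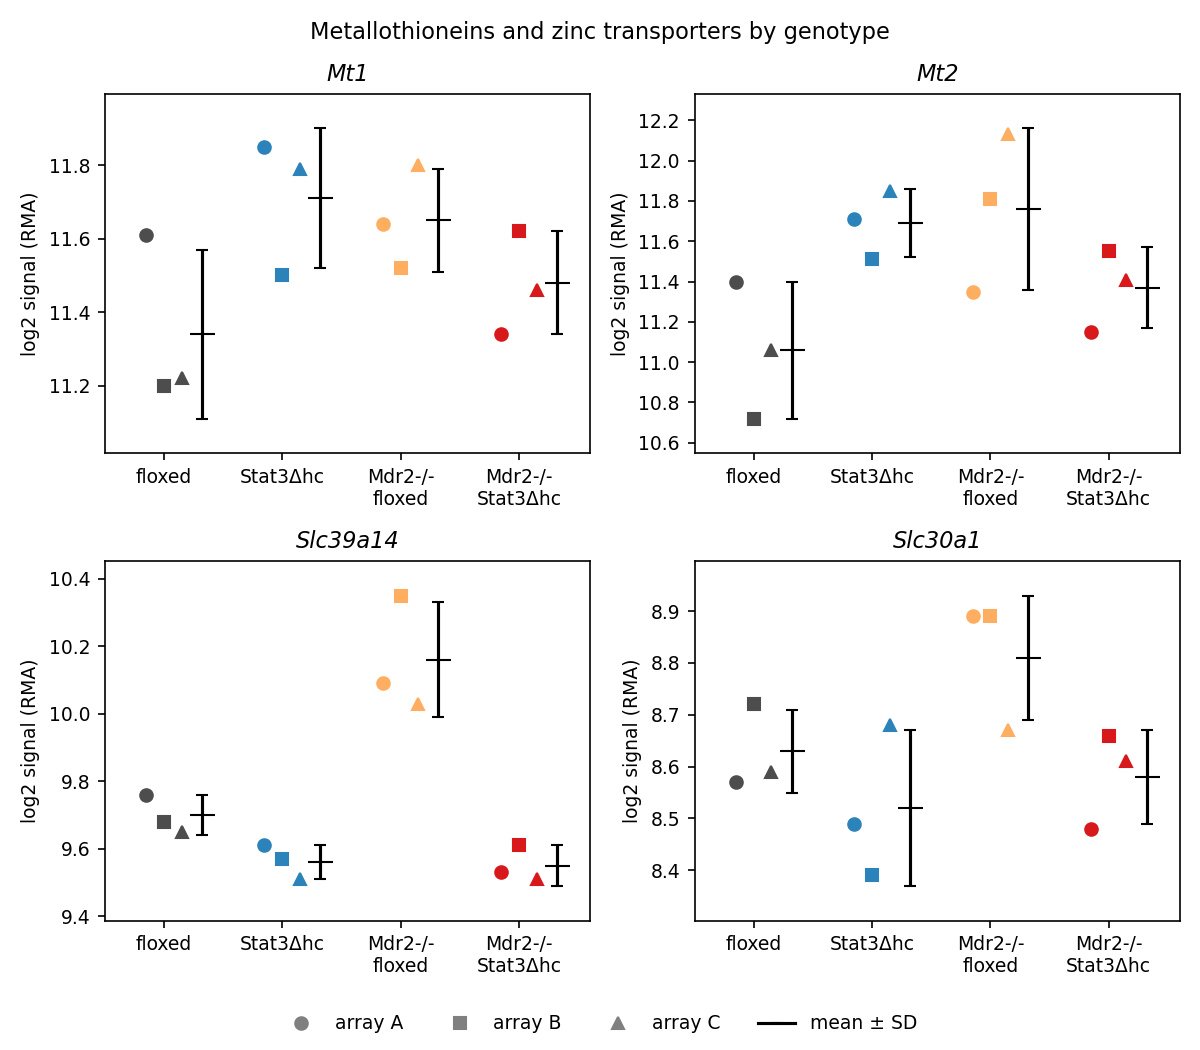
Log2 signal of Mt1, Mt2, Slc39a14 and Slc30a1 (y axes, each with its own range) in the 4 genotypes (x axes), with 1 point per array and the mean ± SD of 3 arrays beside the points. The 3 Mdr2-/- floxed arrays of Slc39a14 sit between 10.03 and 10.35, above the other 9, while the metallothionein points of neighbouring genotypes overlap.

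Mdr2 loss in floxed liver asks what the transporter knockout does while Stat3 is present. Mt2 changed by 0.70 (log2, SE 0.20, 95% interval 0.27 to 1.14, limma adjusted p = 0.036) and Mt1 by 0.31 (SE 0.13, interval 0.02 to 0.60, adjusted p = 0.155). With Slc39a14, described below, 2 of the 4 genes rose and 0 fell, against 7.12% of all tested genes that rose and 5.65% that fell. The Mt2 call was lost in 5 of the 12 fits that each left out 1 array, with 0.53 (adjusted p = 0.146) without floxed B and 0.52 (adjusted p = 0.148) without Mdr2-/- floxed C. It was also lost without floxed C (0.70, adjusted p = 0.0911), Mdr2-/- floxed B (0.68, adjusted p = 0.0921) or Stat3Δhc A (0.70, adjusted p = 0.0523). The Xist pattern and the muscle transcripts separate the same 2 genotypes, and their part in the rise cannot be told apart from that of Mdr2 loss.

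Stat3 deletion without the Mdr2 knockout gave changes of 0.63 for Mt2 (SE 0.20, interval 0.20 to 1.06, limma adjusted p = 0.12) and 0.37 for Mt1 (SE 0.13, interval 0.08 to 0.65, adjusted p = 0.169). Of the 4 genes 0 passed the test by limma, and 2 of the 4 (both metallothioneins) had an unadjusted p under 0.05, as did 2286 of the 13977 tested genes. In the same comparison 1.51% of tested genes rose and 1.07% fell. Floxed A decided the call, since without it both genes passed, Mt1 at 0.50 (adjusted p = 0.0433) and Mt2 at 0.80 (adjusted p = 0.0434). All 6 arrays of this comparison had the Y-linked pattern. Exocrine pancreas markers varied within both genotypes, with means of 5.53, 8.72 and 7.19 in floxed A, B and C and of 5.77, 7.86 and 9.98 in the Stat3Δhc arrays, and their part in these values was not tested.

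On the Mdr2 knockout, Stat3 deletion gave -0.39 for Mt2 (SE 0.20, interval -0.82 to 0.04, adjusted p = 0.217) and -0.18 for Mt1 (SE 0.13, interval -0.46 to 0.11, adjusted p = 0.379). The Stat3 effect thus had opposite signs with and without the knockout for both genes, and the test of that difference gave -1.02 for Mt2 (SE 0.28, interval -1.63 to -0.41, adjusted p = 0.223) and -0.55 for Mt1 (SE 0.19, interval -0.95 to -0.14, adjusted p = 0.23). Neither difference passed. By limma 0 of the 4 genes passed that test, where 0.0143% of tested genes rose and 0.0572% fell, and 3 of the 4 had an unadjusted p under 0.05, as did 2360 of all tested genes. Both Stat3 comparisons and both Mdr2 comparisons draw on the same 4 genotypes, so their values are not independent of each other.

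Mdr2 loss in Stat3Δhc liver left both metallothioneins without a call, at -0.32 for Mt2 (SE 0.20, interval -0.75 to 0.11, limma adjusted p = 0.268) and -0.24 for Mt1 (SE 0.13, interval -0.52 to 0.05, adjusted p = 0.217). In that comparison 0 of the 4 genes passed the test by limma and 0 had an unadjusted p under 0.05, while 6.9% of tested genes rose and 10.5% fell (4852 genes had an unadjusted p under 0.05). Muscle transcripts separate these genotypes too, with marker means of 8.48 to 9.15 in Stat3Δhc and 5.65 to 5.96 in Mdr2-/- Stat3Δhc arrays. Here and below, their part in changes between these genotypes cannot be told apart from that of Mdr2 loss.

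Across the 12 arrays Mt1 and Mt2 correlated with Pearson's r = 0.853 (permutation p = 0.00048, 0.00144 after Benjamini-Hochberg adjustment over 3 relations) and Spearman's rho = 0.776 (permutation p = 0.00418, adjusted 0.0125). Without the 2 arrays farthest from the median of Mt1, r was 0.716 over 10 arrays. Among the 8 Y-linked arrays r was 0.926, and for deviations from the genotype means it was 0.722, with no p computed for either. The permutations moved arrays across genotypes, so their p-values mix differences between genotypes with variation inside them. The 4 arrays with high Xist are too few for a value of their own. The other 2 relations computed gave r = 0.0595 for Mt1 with Slc30a1 (permutation p = 0.861, adjusted 0.861) with rho = 0.13 (permutation p = 0.693, adjusted 0.693), and r = 0.1 for Mt2 with Slc30a1 (permutation p = 0.763, adjusted 0.861) with rho = 0.147 (permutation p = 0.646, adjusted 0.693). Without the 2 farthest arrays these were 0.154 and 0.272, and among the Y-linked arrays -0.236 and -0.333. Slc39a14 was left out of these relations because its 3 Mdr2-/- floxed arrays stand apart. Mt1 and Mt2 are close paralogs, and whether probes of one bind transcripts of the other was not tested.

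Slc39a14, the importer, was highest in Mdr2-/- floxed liver and lay near the floxed level or below it in the other genotypes. It rose 1.38-fold with Mdr2 loss in floxed liver and fell 1.52-fold when Stat3 was deleted on the knockout. In Stat3Δhc liver the Mdr2 knockout changed it by -0.01.

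Slc39a14 read 9.76, 9.68 and 9.65 in floxed arrays and 9.61, 9.57 and 9.51 in Stat3Δhc arrays. It read 10.09, 10.35 and 10.03 in Mdr2-/- floxed arrays and 9.53, 9.61 and 9.51 in Mdr2-/- Stat3Δhc arrays. The lowest Mdr2-/- floxed array thus exceeded the highest of the other 9. The order was Mdr2-/- floxed (10.16 ± 0.17), floxed (9.70 ± 0.06), Stat3Δhc (9.56 ± 0.05) and Mdr2-/- Stat3Δhc (9.55 ± 0.06). The first pair of neighbours did not overlap and passed the test, the next pair did not overlap and did not pass, and the last pair covered the same range.

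With Stat3 deleted on the knockout, Slc39a14 changed by -0.61 (log2, SE 0.09, interval -0.80 to -0.41, limma adjusted p = 0.0037), lower in 3 of 3 arrays. It was the only 1 of the 4 genes called there, where 1.87% of tested genes rose and 3.9% fell. The ranges of the 2 genotypes did not overlap for 2 of the 4 genes, Slc39a14 and Slc30a1, against 28.6% of all tested genes. Each fit without 1 array kept the Slc39a14 call, with changes from -0.67 to -0.51. A term for the Xist pattern gave -0.63 (SE 0.13) and the call was not kept (limma adjusted p = 0.0885). The pattern varied inside 1 genotype only. Here and below, this term rests on array A against B and C of Mdr2-/- Stat3Δhc liver. Xist was high in all 3 Mdr2-/- floxed arrays and in 1 of 3 Mdr2-/- Stat3Δhc arrays, and the part of this pattern in the fall was not tested beyond that term.

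Marker means of several other cell types were also lower in Mdr2-/- Stat3Δhc than in Mdr2-/- floxed liver. The mean of 8 macrophage markers was 8.48 to 8.68 in Mdr2-/- floxed and 7.98 to 8.43 in Mdr2-/- Stat3Δhc liver, and 2 of 8 fell. The mean of 8 endothelial markers was 9.01 to 9.16 against 8.65 to 8.86, and 0 of 8 passed by limma while 6 had an unadjusted p under 0.05. The mean of 8 stellate cell markers was 8.80 to 8.84 against 8.50 to 8.60, and 2 of 8 fell. For 7 bile duct markers the mean was 6.41 to 6.68 against 6 to 6.40, and 1 of 6 tested fell. The changes of these 6 ran from -1.73 to 0.02 with a median of -0.04, beside -0.03 for all tested genes. None of these ranges overlapped. Those of the neutrophil markers (5.59 to 6.43 against 5.50 to 6.08) and erythroid markers (6.75 to 7.02 against 6.50 to 6.92) did. The part of these cell types in the fall of Slc39a14 was not tested. Muscle and pancreas markers were low in both genotypes.

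Mdr2 loss in floxed liver changed Slc39a14 by 0.46 (SE 0.09, interval 0.26 to 0.66, limma adjusted p = 0.00562), higher in 3 of 3 arrays. It was the only 1 of the 4 genes whose ranges did not overlap there, against 33.3% of all tested genes. The fits without 1 array kept this call, with changes from 0.36 to 0.53, and the term for the Xist pattern gave 0.49 (adjusted p = 0.292). The rise and the fall rest on the same 3 Mdr2-/- floxed arrays and are not independent. All 3 Mdr2-/- floxed arrays had high Xist and low muscle transcripts and all 3 floxed arrays the reverse, so these and Mdr2 loss cannot be told apart.

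Without the Mdr2 knockout, Stat3 deletion changed Slc39a14 by -0.14 (SE 0.09, interval -0.33 to 0.06, limma adjusted p = 0.519). Its 3 Stat3Δhc arrays lay below the 3 floxed arrays, and with Mt2 it was 1 of 2 genes whose ranges did not overlap in this comparison, against 25.1% of all tested genes. Mdr2 loss in Stat3Δhc liver gave -0.01 (SE 0.09, interval -0.21 to 0.18, limma adjusted p = 0.93). In that comparison the ranges of all 4 genes overlapped, where 37.2% of tested genes did not. The difference of the Stat3 effects was -0.47 (SE 0.13, interval -0.75 to -0.19, limma adjusted p = 0.211) and did not pass.

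Slc30a1, the exporter, passed the test in none of the 5 comparisons. It read 8.57, 8.72 and 8.59 in floxed arrays and 8.49, 8.39 and 8.68 in Stat3Δhc arrays. It read 8.89, 8.89 and 8.67 in Mdr2-/- floxed arrays and 8.48, 8.66 and 8.61 in Mdr2-/- Stat3Δhc arrays. Mdr2-/- floxed A and B were the highest of the 12. The order was Mdr2-/- floxed (8.81 ± 0.12), floxed (8.63 ± 0.08), Mdr2-/- Stat3Δhc (8.58 ± 0.09) and Stat3Δhc (8.52 ± 0.15), and each pair of neighbours overlapped.

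Its largest change was -0.23 with Stat3 deletion on the knockout (SE 0.10, interval -0.45 to -0.02, limma adjusted p = 0.153). The 3 arrays of Mdr2-/- Stat3Δhc liver lay just below the 3 of Mdr2-/- floxed liver, with 8.66 against 8.67 at the nearest. Mdr2 loss gave 0.19 in floxed liver (SE 0.10, interval -0.03 to 0.40, limma adjusted p = 0.263) and 0.06 in Stat3Δhc liver (SE 0.10, interval -0.15 to 0.28, limma adjusted p = 0.669). Stat3 deletion without the knockout gave -0.11 (SE 0.10, interval -0.32 to 0.11, limma adjusted p = 0.66), and the difference of the Stat3 effects was -0.12 (SE 0.14, interval -0.43 to 0.18, limma adjusted p = 0.631).

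**Figure D2:**
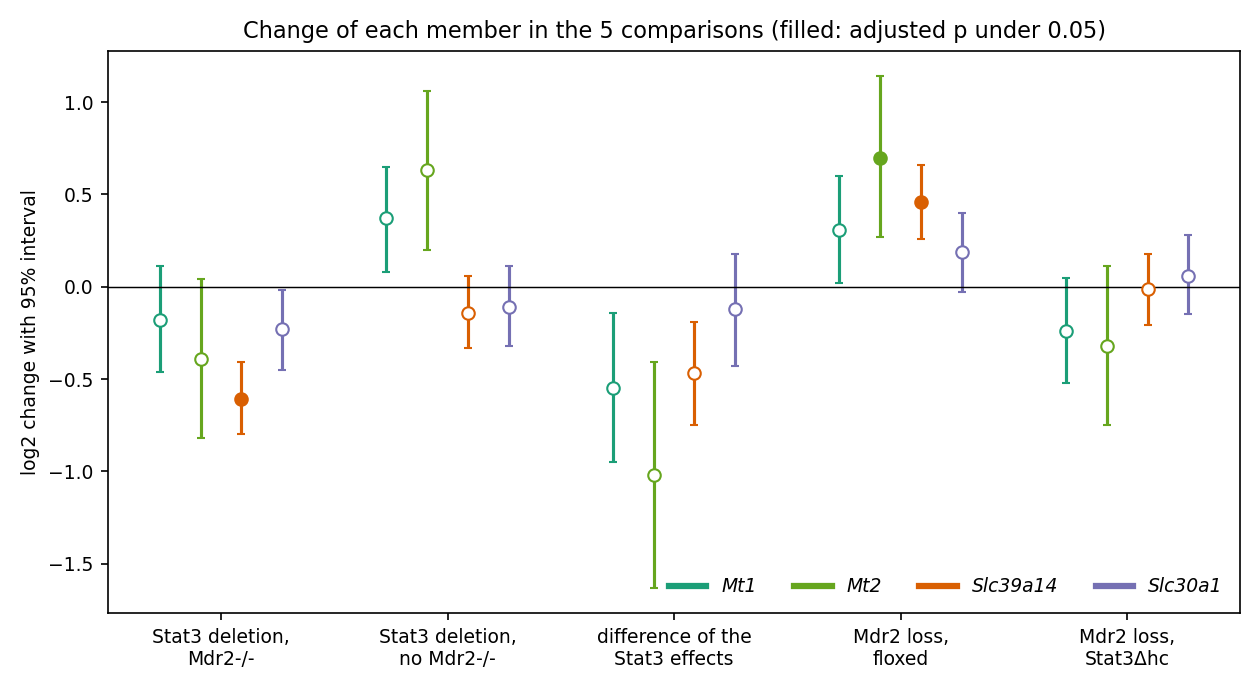
Log2 change with its 95% interval (y axis) of the 4 genes in the 5 comparisons (x axis), from the fit over all 12 arrays, with filled points where the adjusted p is under 0.05. The filled points are Slc39a14 at -0.61 with Stat3 deletion on the knockout, and Mt2 at 0.70 and Slc39a14 at 0.46 with Mdr2 loss in floxed liver.

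The rest of the zinc pathway was read from the other metallothioneins with Mtf1, the Slc39 importers and the Slc30 transporters, most of which move zinc out of the cytosol. Of these lists, 4 of 5, 13 of 14 and 9 of 10 genes were bright enough to be tested, the 4 genes above included, and Mt4, Slc39a12 and Slc30a8 were not. Of these 26 tested genes, 2 fell and 0 rose with Stat3 deletion on the knockout, where 3.9% of all tested genes fell and 1.87% rose. With Stat3 deletion without the knockout 0 passed by limma and 7 had an unadjusted p under 0.05, beside 2286 of 13977 tested genes. With Mdr2 loss 3 rose and 1 fell in floxed liver, where 7.12% of all tested genes rose and 5.65% fell. In Stat3Δhc liver 3 rose and 2 fell, beside 6.9% and 10.5% of all tested genes.

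Mtf1, the factor that senses zinc, lay between 7.02 and 7.39 on all 12 arrays and was called in none of the comparisons. Its change with Stat3 deletion without the knockout was 0.19 (limma adjusted p = 0.286). Mt3, a metallothionein best known from brain, lay between 6.60 and 7.29 and was also never called. For the metallothionein list the median change was 0.28 with Stat3 deletion without the knockout and 0.19 with Mdr2 loss in floxed liver, where the medians of all tested genes were -0.01 and -0.0042. It was -0.13 with Stat3 deletion on the knockout and -0.22 with Mdr2 loss in Stat3Δhc liver, beside -0.03 and -0.02.

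Among the importers, Slc39a14 alone was called in the Stat3 comparisons, and the list's median was -0.15 with Stat3 deletion on the knockout and -0.02 without it. Slc39a5, a zinc carrier of the basolateral membrane, fell with Mdr2 loss in both Stat3 genotypes. It lay between 7.49 and 7.58 in floxed and between 7.38 and 7.66 in Stat3Δhc arrays, and between 6.86 and 7.06 in Mdr2-/- floxed and 6.61 and 6.95 in Mdr2-/- Stat3Δhc arrays. The groups did not overlap, and the changes were -0.60 in floxed liver (SE 0.11, limma adjusted p = 0.00298) and -0.67 in Stat3Δhc liver (SE 0.11, limma adjusted p = 0.00135). With a term for the Xist pattern the floxed change was -0.32 (adjusted p = 0.531). Pancreas also expresses this gene, and the mean of the pancreas markers was 5.33 to 5.75 in Mdr2-/- arrays and 5.53 to 9.98 in the others. Their part in the fall was not tested.

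Mdr2 loss in Stat3Δhc liver also went with calls for Slc39a4, the importer whose loss in the human gut causes zinc deficiency, which rose by 0.56 (SE 0.15, limma adjusted p = 0.0202). Slc39a8, the closest relative of Slc39a14, fell by 0.38 (limma adjusted p = 0.0198), and Slc39a13 rose by 0.22 (limma adjusted p = 0.0481). The call of Slc39a13 was lost in each of the 12 fits without 1 array. That of Slc39a4 was lost in 3 of them (adjusted p up to 0.0642) and that of Slc39a8 in 4 (up to 0.0602). The term for the Xist pattern ended all 3 calls, with Slc39a4 at 0.45 (adjusted p = 0.0573), Slc39a8 at -0.34 (adjusted p = 0.0506) and Slc39a13 at 0.20 (adjusted p = 0.0923), and cyclic loess ended that of Slc39a8 (-0.29, adjusted p = 0.102).

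Among the Slc30 genes, Slc30a10, which exports manganese, changed most. It read 8.05, 8.11 and 8.29 in floxed arrays and 7.28, 7.51 and 8.06 in Stat3Δhc arrays. It read 8.11, 8.39 and 8.31 in Mdr2-/- floxed arrays and 7.58, 6.90 and 7.23 in Mdr2-/- Stat3Δhc arrays. The 2 Mdr2-/- genotypes did not overlap, and Slc30a10 fell 2.04-fold with Stat3 deletion on the knockout (log2 change -1.03, SE 0.19, limma adjusted p = 0.0101). Without the knockout the change was -0.53 (limma adjusted p = 0.172), and Stat3Δhc C, at 8.06, lay within the floxed range. Each fit without 1 array kept the call on the knockout, with changes from -1.20 to -0.86, and the term for the Xist pattern gave -0.69 (adjusted p = 0.334). Slc39a14 and Slc30a10 were the only zinc family genes called in that comparison in the main fit. With a filter at the 60th percentile, 3 of 8 tested Slc30 genes fell there.

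Slc30a3, known as the zinc loader of synaptic vesicles, rose with Mdr2 loss by 0.57 in floxed liver (SE 0.12, limma adjusted p = 0.00763) and by 0.70 in Stat3Δhc liver (SE 0.12, limma adjusted p = 0.00206). The term for the Xist pattern gave 0.61 (adjusted p = 0.32) in floxed liver and 0.71 (adjusted p = 0.00642) in Stat3Δhc liver. The median of the Slc30 list was -0.23 with Stat3 deletion on the knockout and 0.16 with Mdr2 loss in floxed liver.

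**Figure D3:**
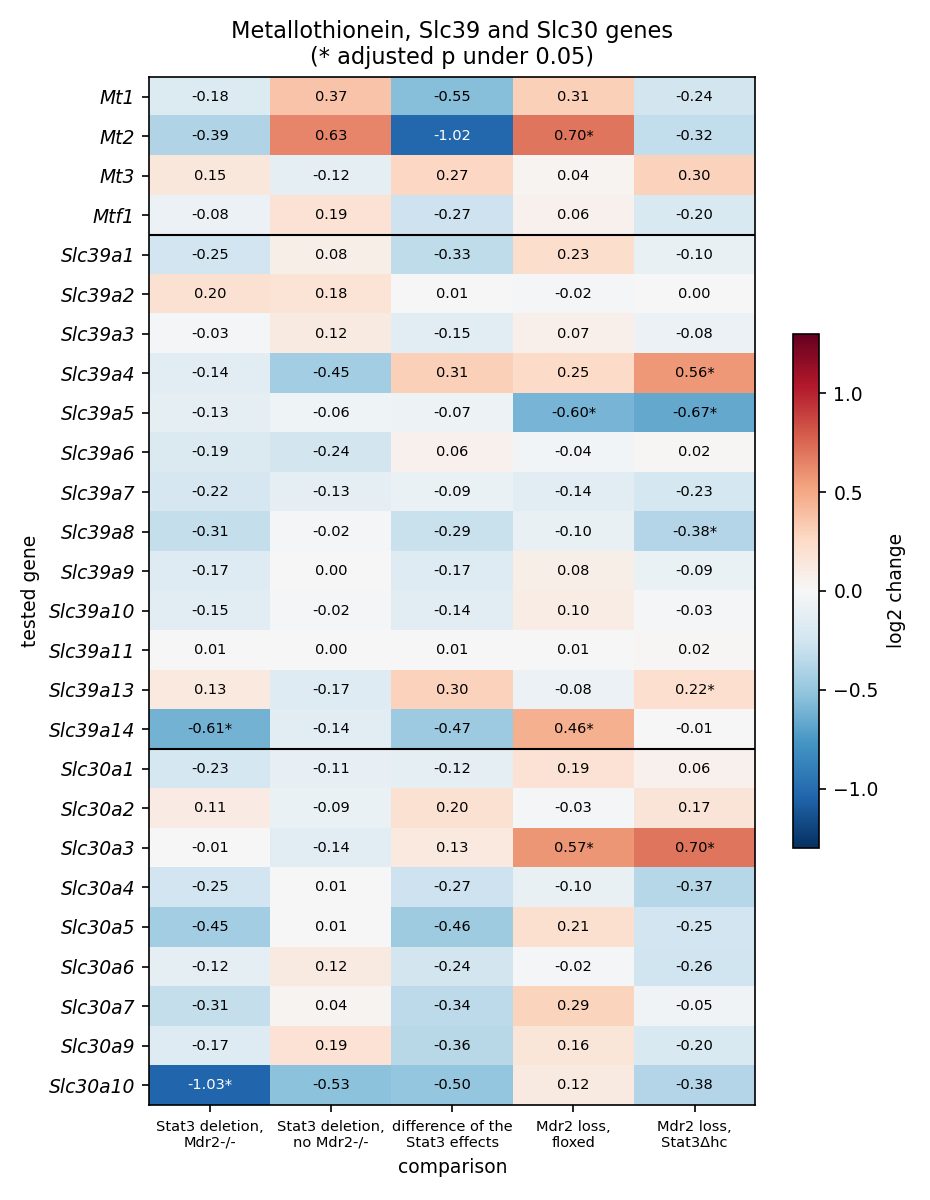
Log2 change (colour and printed value) of each tested metallothionein, Slc39 and Slc30 gene (y axis) in the 5 comparisons (x axis), with an asterisk where the adjusted p is under 0.05. Slc39a14 (-0.61) and Slc30a10 (-1.03) carry the asterisks of Stat3 deletion on the knockout, and Slc39a5 (-0.60 and -0.67) and Slc30a3 (0.57 and 0.70) carry them in both Mdr2 comparisons.

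Copper, the other metal that metallothioneins bind, gave 1 call among its 9 tested handling genes over all comparisons. It came with Mdr2 loss in floxed liver, where 5.65% of all tested genes fell and 7.12% rose. Commd1, which takes part in copper export to bile, fell by 0.48 with Mdr2 loss in floxed liver (limma adjusted p = 0.0191), a call that was lost in 3 of the 12 fits without 1 array and with the term for the Xist pattern (-0.49, adjusted p = 0.442). The copper pumps and chaperones of the list passed the test in none of the comparisons in the main fit. With cyclic loess or a filter at the 60th percentile, 1 of the 9 also rose with Mdr2 loss in floxed liver.

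Genes that respond to signals known to induce the 4 were read from further lists, and whether these signals acted on the 4 here was not tested. Of all tested genes, 3.9% fell and 1.87% rose with Stat3 deletion on the knockout, and 1.07% fell and 1.51% rose without it. With Mdr2 loss 5.65% fell and 7.12% rose in floxed liver, and 10.5% fell and 6.9% rose in Stat3Δhc liver. Among 17 tested acute phase genes of interleukin 6 and STAT3, 10 fell and 0 rose with Stat3 deletion on the knockout (median -0.52). Fgl1, a fibrinogen-related liver protein, changed by -4.48 (limma adjusted p = 2.64e-07), Apcs, serum amyloid P, by -1.26 (limma adjusted p = 0.00156), and Saa2, a serum amyloid A, by -3.68 (limma adjusted p = 0.00185). With Mdr2 loss in floxed liver 6 rose and 0 fell, among them Lcn2 by 2.70 (limma adjusted p = 0.0002) and Steap4 by 1.02 (limma adjusted p = 0.00063). Slc39a14 was called in the same 2 comparisons with the same signs, and a link to this list was not tested. The mean of the 20 acute phase genes on the array was 9.45 to 10.41 in Mdr2-/- floxed arrays, 9.15 to 9.28 in floxed, 8.64 to 8.86 in Mdr2-/- Stat3Δhc and 8.57 to 8.67 in Stat3Δhc arrays. The count of 10 became 6 without Mdr2-/- Stat3Δhc B or without Mdr2-/- Stat3Δhc C. With the term for the Xist pattern, 1 fell with Stat3 deletion on the knockout and 0 rose with Mdr2 loss in floxed liver.

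Without the knockout, 3 acute phase genes fell with Stat3 deletion, Fgl1 (-2.52), Apcs (-1.01) and Itih3 (-0.41), with limma adjusted p of 5.97e-05, 0.00594 and 0.0382. The Itih3 call was lost in 8 of the 12 fits without 1 array (adjusted p up to 0.191). Of all 22 other settings, 10 kept it. In Stat3Δhc liver Lcn2 rose by 2.79 (limma adjusted p = 0.000131) and Steap4 by 0.82 (limma adjusted p = 0.00217) with Mdr2 loss, where Slc39a14 changed by -0.01. Socs3, a feedback inhibitor of the pathway, rose by 0.56 there (limma adjusted p = 0.0367, lost in 4 of the 12 fits without 1 array and with the term for the Xist pattern). Fgl1 fell by 2.10 (limma adjusted p = 4.18e-05) and Itih4 by 0.33 (limma adjusted p = 0.00717), so that 3 of the 17 rose and 2 fell.

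Among 10 tested glucocorticoid induced genes, 3 rose and 0 fell with Stat3 deletion without the knockout (median 0.59). In that comparison Mt1 and Mt2 were higher without passing the test, and a link to this list was not tested. The 3 that rose were Dusp1, a phosphatase (0.77, limma adjusted p = 0.0184), Tsc22d3, the glucocorticoid induced leucine zipper (0.72, limma adjusted p = 0.0206), and Zbtb16, a transcription factor (1.10, limma adjusted p = 0.0249). The count was 0 without Stat3Δhc B or without floxed C, 1 without Stat3Δhc C or without floxed B, and 6 without floxed A. With Mdr2 loss in floxed liver, where Mt2 rose, 5 of the 10 rose and 0 fell (median 0.52), Zbtb16 by 2.50 (limma adjusted p = 2.1e-05) and Errfi1 by 0.93 (limma adjusted p = 0.00467). The count there was 3 without floxed B or floxed C, and 1 with the term for the Xist pattern.

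With Mdr2 loss in Stat3Δhc liver 2 of these genes rose and 1 fell. Zbtb16 rose by 1.72 (limma adjusted p = 0.000398) and Errfi1 by 0.58 (limma adjusted p = 0.0414, lost in 9 of the 12 fits without 1 array). Tsc22d3 fell by 0.58 (limma adjusted p = 0.0145). With Stat3 deletion on the knockout 0 of the 10 passed by limma and 2 had an unadjusted p under 0.05.

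Of 9 tested Nrf2 targets of oxidative stress, 4 rose with Mdr2 loss in floxed liver. Gstm1, a glutathione transferase, rose by 1.06 (limma adjusted p = 0.00099), Srxn1, sulfiredoxin, by 0.49 (limma adjusted p = 0.0256), Txnrd1, a thioredoxin reductase, by 0.46 (limma adjusted p = 0.0119), and Gsr, glutathione reductase, by 0.40 (limma adjusted p = 0.00499). The count was 2 without floxed B and 0 with the term for the Xist pattern. Gstm1 also rose with Stat3 deletion without the knockout (1.11, limma adjusted p = 0.0035), where Osgin1 fell (-1.34, limma adjusted p = 0.00594). With Mdr2 loss in Stat3Δhc liver 3 rose, Gclm, Osgin1 and Srxn1, of which Srxn1 lost its call in 7 of the 12 fits without 1 array. Of 10 genes of the integrated and endoplasmic reticulum stress responses, Atf3, a stress-induced transcription factor, rose by 1.15 with Mdr2 loss in both floxed liver (limma adjusted p = 0.00125) and Stat3Δhc liver (limma adjusted p = 0.00105), and Trib3 rose by 0.63 in Stat3Δhc liver (limma adjusted p = 0.0183).

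The genes whose log2 values followed each of the 4 most closely over the 12 arrays, by Pearson's r among all tested genes, are given as a description. Slc39a14 was followed by Pros1, the anticoagulant protein S (r = 0.934, rho = 0.853), Slc17a9, a nucleotide carrier (0.93, 0.797), and Gpc4, a glypican (0.925, 0.853). These points share the 3 high Mdr2-/- floxed arrays. The 3 genes were picked for their likeness to Slc39a14 on these same arrays. Changes with the same signs as its own thus follow from that choice and are no separate evidence. Pros1 changed by -0.59 with Stat3 deletion on the knockout (limma adjusted p = 0.00279), Slc17a9 by -0.54 (limma adjusted p = 0.00762) and Gpc4 by -0.59 (limma adjusted p = 0.00271). With Mdr2 loss in floxed liver they rose by 0.34, 0.43 and 0.37, with limma adjusted p of 0.0167, 0.00982 and 0.0101. The term for the Xist pattern ended these calls in both comparisons, with adjusted p of 0.0971, 0.154 and 0.105 for Stat3 deletion on the knockout and of 0.567, 0.408 and 0.597 for Mdr2 loss. With Mdr2 loss, Pros1 also lost its call in 3 of the 12 fits without 1 array and with median centring, and Gpc4 in 1. On the knockout, Slc17a9 also lost its call in a fit of only the compared groups.

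Mt1 was followed by Tst, the sulfurtransferase rhodanese (r = 0.872, rho = 0.874), Fbxo8 (0.872, 0.818) and Maoa, monoamine oxidase A (0.865, 0.867). Mt2 was followed by Rab11fip1 (r = 0.902, rho = 0.811), Znrf3, a ubiquitin ligase that limits Wnt receptors (0.899, 0.832), and Dab2ip (0.873, 0.748). Each metallothionein was thus outside the other's 3 nearest genes. Slc30a1 was followed by Tkfc, a triose kinase (r = 0.926, rho = 0.811), Acp5, an acid phosphatase (0.911, 0.881), and Ift52, a component of cilia (0.91, 0.902).

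**Figure D4:**
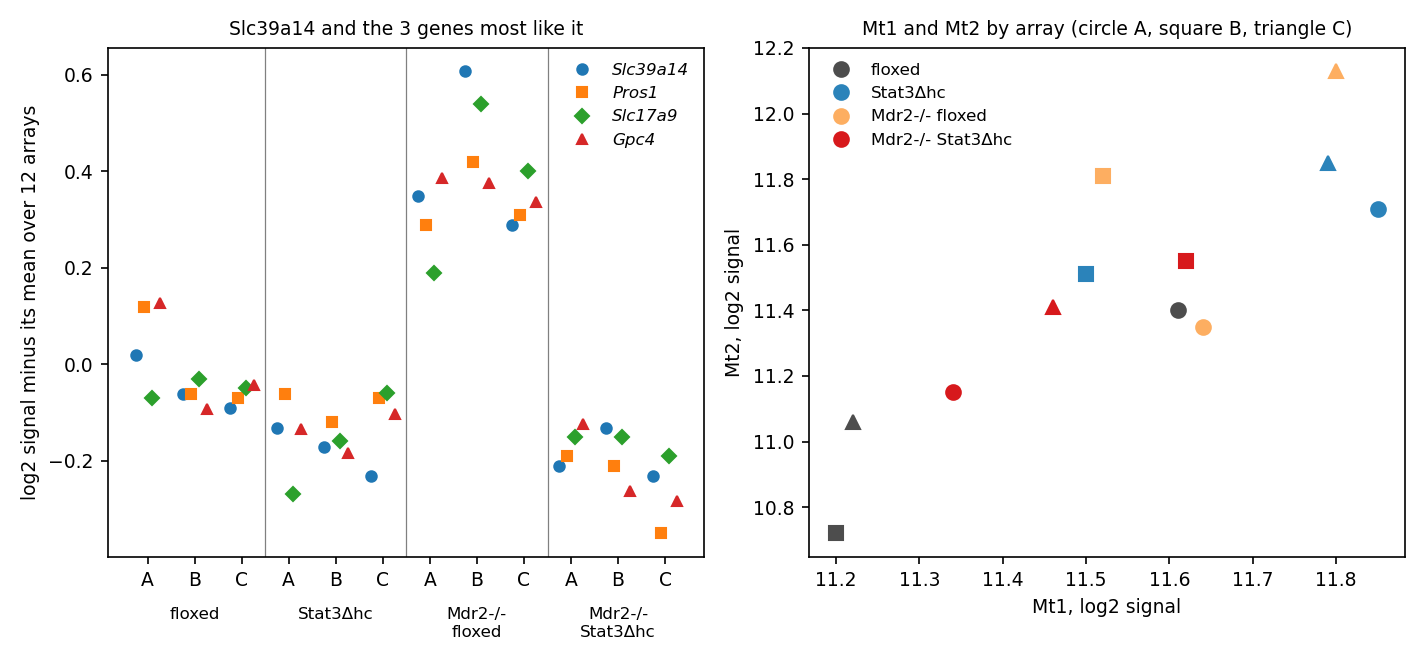
Left, log2 signal minus its mean over 12 arrays (y axis) for Slc39a14 and the 3 genes most like it, by array (x axis); right, Mt2 against Mt1 log2 signal with 1 point per array. The 4 genes on the left stand highest in the Mdr2-/- floxed arrays, and on the right Mt1 and Mt2 rise together (r = 0.853) with floxed B and C at the lower left.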

How the data were processed

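RNA of 12 whole liver samples was read on an Affymetrix mouse array. The deposited log2 values, 1 per transcript cluster and array, are RMA output according to the submitters' processing notes; its version, and any filter the authors applied, are not given in the sources used here. Genotypes follow the sample titles. The source name of the Mdr2-/- samples gives the opposite Stat3 genotype, and the Stat3 signal followed the titles. A gene was tested where it exceeded the 40th percentile of at least 3 arrays. The test was limma 3.58.1 (R 4.3.3), 1 fit of 4 genotype means to all 12 arrays (8 residual degrees of freedom), with Benjamini-Hochberg adjustment over 13977 genes and a threshold of 0.05. Precision is limited by the number of arrays, the median standard error of a change being 0.11. The test was checked on simulated data.

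The 4 genes and all lists were chosen with earlier results of these data known. Named are the 4, Stat3, Abcb4, genes of the zinc families, up to 4 called genes per list and comparison, and the 3 genes of highest correlation with each of the 4. Counts of lists under other settings were added after the data were seen. Over all genotypes, arrays of 1 letter did not vary together more than others, so the letters were not used as pairs. Same letters gave correlations of -0.409 to 0.366 (18 pairs, 4 over 0.1) and other letters -0.373 to 0.482 (36 pairs, 14 over 0.1). Between floxed and Stat3Δhc arrays alone, same letters gave 0.268 (A), 0.0726 (B) and 0.366 (C), and other letters -0.349 to 0.175. Promoter windows came from RefSeq GRCm38.p6 and were ended at the transcription start of its promoter table. For Mt1 and Slc30a1 that start lies inside the annotated gene span. Alternatives were other filters, normalizations, variance models and array sets, a term for the Xist pattern, and leaving out each array. Figures used matplotlib 3.10.9 in Python 3.11.15.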

Additional observations from a re-analysis of the deposited data

Results flagged for a closer look

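Among the tested acute phase genes, Fgl1 was the 1 gene of the lists whose Stat3 effect differed between livers with and without the Mdr2 knockout by a test of the difference itself. The difference was -1.96 (log2, SE 0.29, limma adjusted p = 0.038), from a change of -4.48 with the knockout and of -2.52 without it. The call was lost in 8 of the 12 fits without 1 array, with adjusted p up to 0.111. It was also lost with the term for the Xist pattern (-2.16, limma adjusted p = 0.0857). Mt1, Mt2, Slc39a14 and Slc30a1 did not pass this test. With 3 arrays a genotype, single arrays were not tested for standing apart.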

How the results depend on the processing

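Of 436 values of the 4 genes under other settings, 413 kept their direction and their side of the threshold. Most of these were uncalled in the main fit and counted as kept by staying uncalled with the same sign. The count thus says little about the calls themselves. The rise of Mt2 with Mdr2 loss in floxed liver was the least stable call. It became 0.66 with median centring (adjusted p = 0.0521), 0.70 with only the compared groups (0.0716), 0.70 with the replicate block (0.0506) and 1.04 with the Xist pattern as a term (0.287). Leaving out 1 array gave 0.52 to 0.91. With the Xist term Slc39a14 was no longer called, at -0.63 (SE 0.13, 0.0885) for Stat3 deletion on the knockout and 0.49 (SE 0.17, 0.292) for Mdr2 loss in floxed liver. The main fit gave -0.61 and 0.46, each with SE 0.09. The Xist term rests on array A against B and C of Mdr2-/- Stat3Δhc liver. The part of the Xist pattern in these changes was not tested beyond it. The replicate block changed no other call of the 4 genes.

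Without 1 array, the change with Stat3 deletion without the knockout ran from 0.30 to 0.50 for Mt1 and from 0.46 to 0.80 for Mt2, and among these fits both passed the threshold only in the one without floxed A. With array weights more values passed: 0.52 for Mt1 (0.00373) and 0.69 for Mt2 (0.00553) in that comparison, -1.03 for Mt2 (0.0329) and -0.47 for Slc39a14 (0.0328) in the difference of the Stat3 effects, and -0.26 for Mt1 (0.0453) with Mdr2 loss in Stat3Δhc liver. That fit gave Stat3Δhc A a weight of 9.01 and the others 0.26 to 2.86. For Mdr2 loss in Stat3Δhc liver, small uncalled changes turned sign: Slc39a14 to 0.07 with cyclic loess and between -0.04 and 0.01 without 1 array, and Slc30a1 to -0.01 with median centring and between -0.0023 and 0.14 without 1 array. The cause of these shifts was not tested.

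Over all genes, 806 were called for Stat3 deletion on the knockout (37 with the Xist term, 230 with only the compared groups, 473 with the replicate block, 2298 with array weights), 361 without it (237 with the block, 2955 with weights) and 10 for the difference (3, 6, 6, 23 and 567 with the block, the Xist term, no filter, trend and robust moderation, and weights). Mdr2 loss gave 1785 in floxed liver (102 with the Xist term) and 2431 in Stat3Δhc liver (1541 with only the compared groups, 5830 with weights). Leaving out 1 array gave 302 to 1475, 69 to 753, 0 to 64, 1105 to 2129 and 1156 to 2613. The other scalings moved the median of all genes by under 0.1. The difference was not fitted on only the compared groups, which are all 4 genotypes.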
